A study of Mus musculus with 18 samples.

Results

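The 10 genes Sele, Selp, Vcam1, Icam1, Ackr1, Plvap, Pecam1, Cdh5, Fabp4 and Emcn, which endothelial cells use to bind leukocytes or that mark the wall of small veins, were followed through sorted epidermal cells of mouse ear skin. They are 10 of the 23951 gene rows of the expression table and were found by their symbols. They were chosen by their measured values in the hair follicle stem cell libraries, so those values are given here as a description and carry no test. Each value is an FPKM, the number of fragments per kilobase of transcript, scaled to the mapped reads of the library, in 1 of 18 libraries.

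The mice came from a model of psoriasis-like disease (DKO*-mT/mG) in which floxed c-Jun and JunB alleles are deleted by a tamoxifen-inducible Cre that the keratin 5 promoter drives in basal keratinocytes and hair follicles. All mice, controls included, carried the mT/mG reporter, which makes membrane Tomato in every cell type until Cre acts in that cell and GFP afterwards. At 8 weeks of age, males and females received 4 injections of 2 mg tamoxifen, and ear epidermis was taken on day 7. Cells without CD45 and with high CD49f were divided into CD34+ cells, labelled hair follicle stem cells (HF-SC), and CD34- cells, labelled basal keratinocytes (b-KC). From 3 DKO* mice (814, 815 and 817) each population was divided into GFP+ and Tomato+ cells, shortened to GFP and Tom in the plots. Control HF-SC and b-KC, shortened to Co, came from 3 control mice (810, 825 and 828), whose labels name no colour and which carried K5-Cre and were wild-type or heterozygous for the floxed JunB and c-Jun alleles. The 3 controls of a population serve in every comparison of it, so those comparisons are not independent. Every group held 3 libraries, each from 1 mouse. The protocol in the labels of these samples lists antibodies to CD45, CD49f and CD34. The study's methods also list an antibody to CD31, the product of Pecam1, among markers that varied with the experiment, and whether it was used in this sort is not stated.

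Leukocytes leave the blood mainly through postcapillary venules. E-selectin and P-selectin, made by Sele and Selp, slow the passing cells, and ICAM-1 and VCAM-1 then hold them through leukocyte integrins. Ackr1, the atypical chemokine receptor also known as Duffy antigen, is a marker of venular endothelium, and Plvap forms the diaphragms of fenestrae and caveolae. Pecam1 and Cdh5 (VE-cadherin) hold neighbouring endothelial cells together, Fabp4 is a fatty acid carrier of small-vessel endothelium and of adipocytes, and Emcn is a mucin-like protein of veins and capillaries. Of the 10 genes, Icam1 is the one that keratinocytes are also known to make under inflammatory cytokines.

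Of the genes, 9 shared 1 order of levels, and Icam1 did not. The 9 were highest in Tomato+ HF-SC, lower in control HF-SC, lower again in GFP+ HF-SC and close to 0 in all b-KC libraries. For each of these 9 the ranges of Tomato+ HF-SC, control HF-SC and GFP+ HF-SC did not overlap, and the range of GFP+ HF-SC overlapped that of Tomato+ b-KC or, for Vcam1, of GFP+ b-KC. The share of all genes with ranges so separated was not counted, so nothing is read from the number of genes. The levels of the members in all 18 libraries show this order, with mouse 817 lowest in both DKO* HF-SC fractions for the same 9 genes. In bulk libraries of sorted cells, fewer cells of a type and less RNA per cell cannot be told apart.

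**Figure D1:**
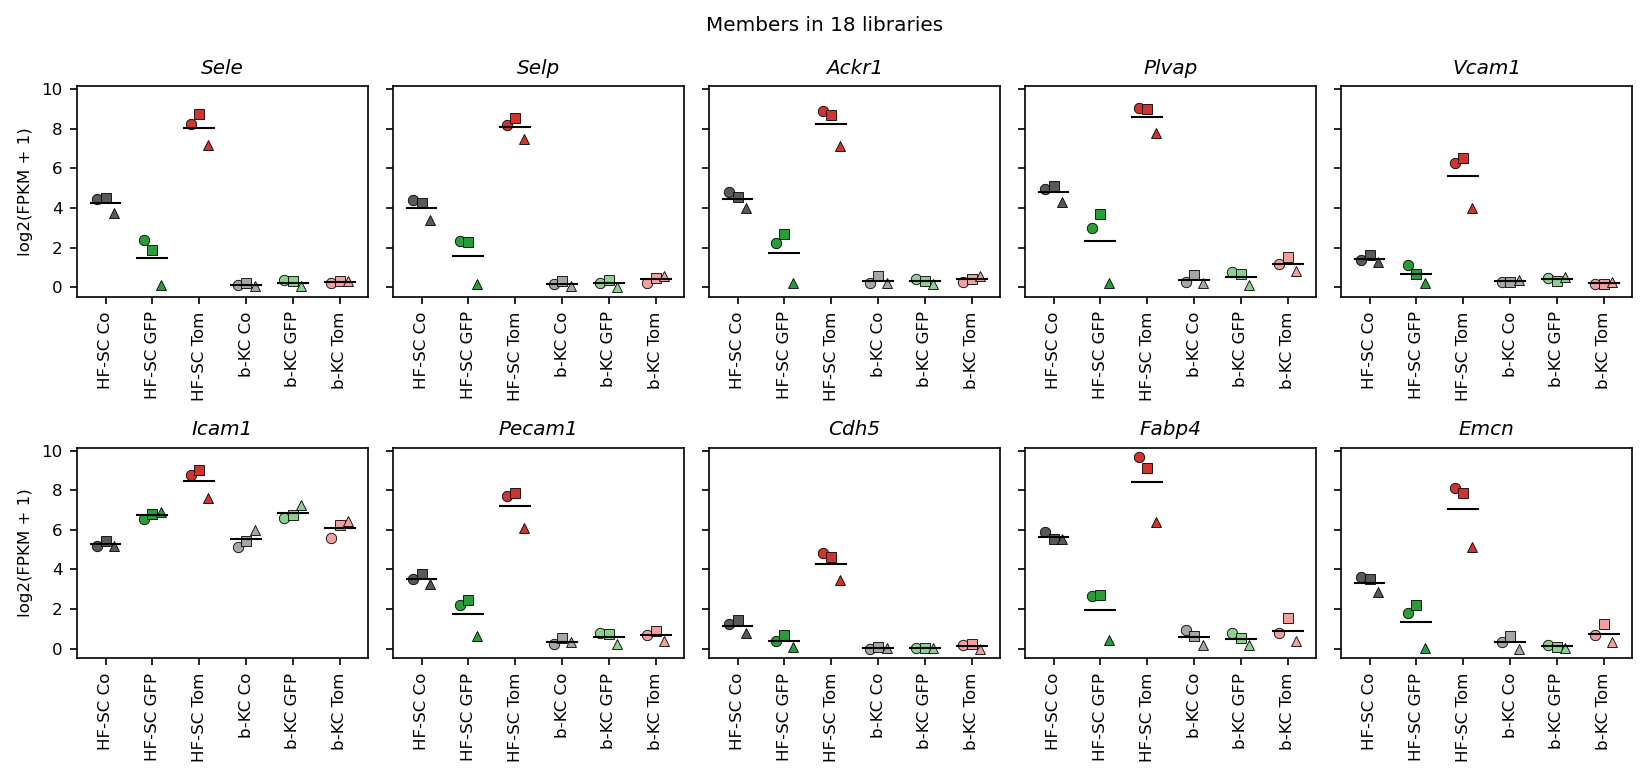
Level of each of the 10 genes as log2(FPKM + 1) in every library; points are libraries, lines are group means of 3 libraries, and circles, squares and triangles are mice 810, 825 and 828 in the control (Co) groups and 814, 815 and 817 in the DKO* groups. All panels but that of Icam1 show Tomato+ HF-SC highest, then control HF-SC, then GFP+ HF-SC, with b-KC libraries near 0.

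The selectins stood far higher in Tomato+ HF-SC than in controls. Sele was at 20.8, 21.9 and 12.2 FPKM in control HF-SC of mice 810, 825 and 828. It was at 4.12, 2.70 and 0.0867 FPKM in GFP+ HF-SC and at 307, 428 and 142 FPKM in Tomato+ HF-SC of mice 814, 815 and 817. The group means were 18.3 ± 5.28, 2.30 ± 2.05 and 293 ± 144 FPKM (SD, n = 3), so that Tomato+ HF-SC was 16.0 times control HF-SC and GFP+ HF-SC was 7.95 times below it. In b-KC, Sele lay between 0.0485 and 0.260 FPKM in all 9 libraries. Sele is at chr1:165978365-165987808 (NCBIM37, plus strand), where a single transcript is annotated, and Selp follows it on the same strand after a gap of 57.6 kb.

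Selp followed Sele closely. It was at 20.3, 17.9 and 9.56 FPKM in control HF-SC and at 4.08, 3.83 and 0.0979 FPKM in GFP+ HF-SC. In Tomato+ HF-SC it was at 296, 377 and 176 FPKM, with a mean of 283 ± 101 FPKM, 17.8 times that of control HF-SC. Both selectins thus had the same order of groups, and for both the GFP library of mouse 817 was far below those of the other two mice. Selp spans chr1:166045395-166080157 and overlaps 2 other annotated genes there (Gm16548 and Gm16587), whose reads could not be separated by strand in these unstranded libraries.

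The promoter of Sele is shown as one of the 9 with the shared order, and that of Icam1 as the exception. Both sequences are from RefSeq (GRCm38.p6) and run 5′ to 3′ on the gene's strand from 250 bases before to 50 after the annotated start. Matches to a single NF-kB consensus of 10 bases are in capitals, so a site of another form would stay in small letters.
Sele, chr1:164047984-164048283, plus strand: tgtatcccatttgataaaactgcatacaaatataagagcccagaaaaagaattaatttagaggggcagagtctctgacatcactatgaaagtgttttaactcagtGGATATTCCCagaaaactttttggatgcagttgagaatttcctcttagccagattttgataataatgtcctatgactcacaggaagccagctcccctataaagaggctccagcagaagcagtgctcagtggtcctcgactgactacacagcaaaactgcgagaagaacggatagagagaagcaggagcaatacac
Icam1, chr9:21015690-21015989, plus strand: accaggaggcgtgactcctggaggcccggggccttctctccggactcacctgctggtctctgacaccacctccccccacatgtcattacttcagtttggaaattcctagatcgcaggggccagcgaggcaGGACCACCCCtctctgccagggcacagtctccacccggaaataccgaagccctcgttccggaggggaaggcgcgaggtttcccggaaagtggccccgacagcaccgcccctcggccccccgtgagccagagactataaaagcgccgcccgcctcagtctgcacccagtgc
The RefSeq table held promoters of 5 of the 10 genes, namely Sele, Selp, Ackr1, Emcn and Icam1. A match to the NF-kB consensus, a motif of 10 bases searched on both strands, was in 3 of these 5 (Sele, Ackr1 and Icam1) and in 26.8% of all 32851 promoters of the same length. In Sele the NF-kB match began 145 bases before the start and in Icam1 120 bases before it. The letters TATAAA were in the promoters of Sele, 49 bases before the start, and Icam1, just after it, and in 13.6% of all, GATAA in those of Sele, Ackr1 and Emcn and in 25.4% of all, and GGAA, the core of ETS sites, in all 5 and in 96.0% of all. A match is a description of the letters, and the gene with its own order of levels (Icam1) shared both the NF-kB match and the TATAAA with Sele.

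The integrin ligand Vcam1 was lower in control HF-SC than the selectins and Icam1. It was at 1.56, 2.06 and 1.39 FPKM in control HF-SC, at 1.15, 0.605 and 0.161 FPKM in GFP+ HF-SC and at 76.1, 91.7 and 14.7 FPKM in Tomato+ HF-SC. The mean of Tomato+ HF-SC, 60.8 ± 40.7 FPKM, was 36.4 times that of control HF-SC, a wider ratio than for any of the other 9 genes. In b-KC, Vcam1 stayed at or under 0.401 FPKM. Vcam1 lies at chr3:115812938-115832606 on the minus strand.

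Icam1 had a pattern of its own. In HF-SC it was at 35.8, 42.1 and 35.5 FPKM in Co, at 91.7, 109 and 121 FPKM in GFP and at 437, 520 and 195 FPKM in Tom. In b-KC it was at 34.3, 43.1 and 61.7 FPKM in Co (mice 810, 825 and 828), at 95.4, 107 and 155 FPKM in GFP and at 47.4, 76.1 and 87.2 FPKM in Tom. In HF-SC the 3 groups did not overlap, and GFP lay above Co, the reverse of the other 9 genes. In b-KC the GFP libraries lay above every Co and Tom library, and the ranges of Tom and Co overlapped.

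From high to low, the Icam1 means were 384 ± 169 in Tomato+ HF-SC, 119 ± 31.5 in GFP+ b-KC, 107 ± 14.5 in GFP+ HF-SC, 70.2 ± 20.6 in Tomato+ b-KC, 46.4 ± 14.0 in control b-KC and 37.8 ± 3.73 FPKM in control HF-SC. The ranges of GFP+ b-KC and GFP+ HF-SC overlapped, as did those of Tomato+ b-KC and control b-KC and those of control b-KC and control HF-SC. Icam1 lies at chr9:20820404-20833241 and overlaps the microRNA gene Mir1900.

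**Figure D2:**
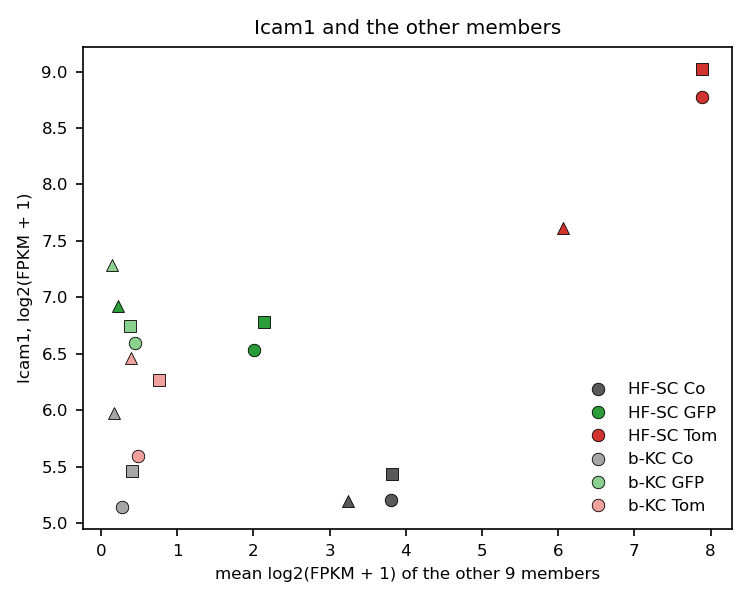
Icam1 (vertical axis) against the mean of the other 9 genes (horizontal axis), both as log2(FPKM + 1), with 1 point per library and mice marked as in the plot of levels. The 3 Tomato+ HF-SC libraries are high on both axes, and the b-KC libraries on the left run from 34.3 to 155 FPKM of Icam1.

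The venule markers Ackr1 and Plvap followed the selectins. Ackr1 was at 27.4, 22.5 and 15.2 FPKM in control HF-SC, at 3.71, 5.44 and 0.145 FPKM in GFP+ HF-SC and at 480, 421 and 138 FPKM in Tomato+ HF-SC. Plvap was at 29.6, 33.4 and 18.9 FPKM in control HF-SC, at 7.00, 12.0 and 0.167 FPKM in GFP+ HF-SC and at 523, 505 and 222 FPKM in Tomato+ HF-SC. Their Tom means were 16.0 and 15.3 times those of Co, close to the ratio of Sele. Ackr1 lies at chr1:175262017-175263634, where the annotation has it under its older symbol Darc. Plvap, at chr8:74021653-74035668, overlaps Gtpbp3, which was read at 1.64 to 6.14 FPKM in the 18 libraries.

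Fabp4 showed the widest spread between DKO* mice in Tomato+ HF-SC, measured as the level of mouse 817 against the other two. It was at 58.3, 46.0 and 45.4 FPKM in control HF-SC, at 5.38, 5.503 and 0.328 FPKM in GFP+ HF-SC and at 819, 567 and 84.2 FPKM in Tomato+ HF-SC. The Tomato+ HF-SC library of mouse 817 was at 12.1% of the mean of the other two for Fabp4, at 13.8% for Emcn and at 17.6% for Vcam1, against 52.2% for Selp, the least affected. Emcn was at 11.3, 10.4 and 6.35 FPKM in control HF-SC, at 2.50, 3.61 and 0.0296 FPKM in GFP+ HF-SC and at 273, 229 and 34.7 FPKM in Tomato+ HF-SC. Fabp4 lies at chr3:10204347-10208576 and Emcn at chr3:137004031-137095149.

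The 2 junction genes differed in level and shared the order. Pecam1 was at 10.6, 12.9 and 8.62 FPKM in control HF-SC, at 3.57, 4.52 and 0.547 FPKM in GFP+ HF-SC and at 209, 234 and 66.3 FPKM in Tomato+ HF-SC. Cdh5 was at 1.37, 1.72 and 0.741 FPKM in control HF-SC, at 0.315, 0.583 and 0.0422 FPKM in GFP+ HF-SC and at 27.0, 23.6 and 9.88 FPKM in Tomato+ HF-SC. The ratio of Tomato+ HF-SC to control HF-SC was 15.8 for both genes, although Pecam1 was several times the more abundant per length of transcript. Pecam1 lies at chr11:106515531-106611942, where a U3 small nucleolar RNA gene overlaps it, and Cdh5 at chr8:106625525-106668402.

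The reads behind the low values were few. Low values of genes with 1 annotated transcript fell on steps of 1 read, with 80.9 to 85.4% of them within 0.1 of a whole read, and the steps give about 16500000 to 26300000 reads per library. On this scale Sele rested on 869 to 1244 reads in control HF-SC and on 10692 to 32800 in Tomato+ HF-SC. It rested on 268, 176 and 6 reads in GFP+ HF-SC of mice 814, 815 and 817, and on 3 to 15 reads in b-KC. Cdh5 rested on 4 reads in GFP+ HF-SC of mouse 817 and was listed at 0 in 2 b-KC libraries. Plvap rested on more reads in Tomato+ b-KC (30.0 to 76.0) than in control b-KC (6 to 23). Ratios between b-KC groups of these 9 genes thus rest on few reads.

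Against control HF-SC, the mean of Tomato+ HF-SC was 9.83 to 36.4 times higher for the 9 genes and 10.1 times higher for Icam1. All 10 had Tomato+ HF-SC libraries above every control HF-SC library, in a comparison in which limma called 15.7% of the 12751 tested genes higher and 13.9% lower. On the log2(FPKM + 1) scale the median difference of the 10 was 3.74, beside -0.04 over all tested genes. GFP+ HF-SC was 2.62 to 13.3 times below control HF-SC for the 9 genes, and 2.83 times above it for Icam1, in a comparison where 13.0% of tested genes were called higher and 12.3% lower. These ratios of 3 libraries depended on single mice. Without mouse 814 the GFP+ level of Sele was 13.1 times below controls in place of 7.95, and that of Vcam1 4.37 in place of 2.62. Without mouse 815 Ackr1 moved to 11.2, Plvap to 7.62, Cdh5 to 7.16 and Emcn to 7.41 times below controls. Over all mice left out the 9 genes stayed 1.91 to 17.5 times below controls. In Tomato+ HF-SC Fabp4 moved to 6.53 times above controls without mouse 814, and the other 8 genes moved by less than 1.5 times. Since the genes were taken for these differences, nothing is read from their number here.

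Within each DKO* mouse, GFP+ and Tomato+ cells of the HF-SC gate came from the same skin, and the 9 genes differed between them far more than Icam1. In mouse 814 the GFP level was 0.657 to 1.71% of the Tom level over the 9 genes, and in mouse 815 it was 0.630 to 2.47%. In mouse 817 it was 0.0557 to 1.09%, with a median of 0.105%. For Icam1 it was 21.0, 21.0 and 61.9%. Over all tested genes, 4.09% were called higher in Tomato+ HF-SC than in GFP+ HF-SC and 0.902% lower.

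**Figure D3:**
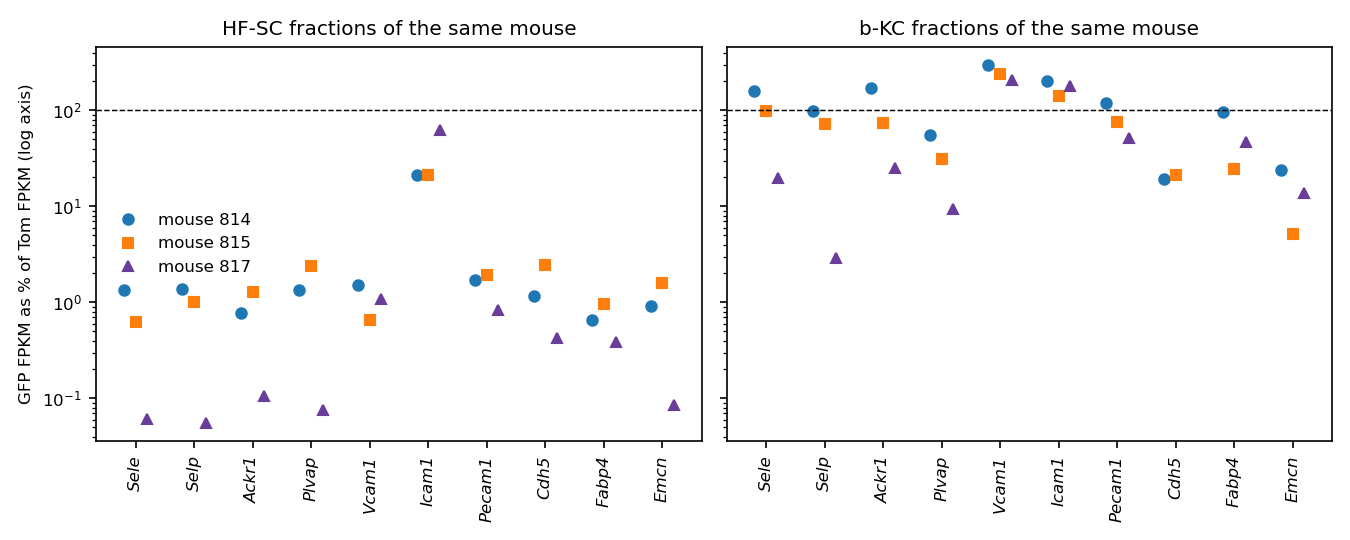
FPKM of the GFP+ fraction as a percentage of that of the Tomato+ fraction of the same mouse, on a log axis, for HF-SC on the left and b-KC on the right; the dashed line marks 100%, and Cdh5 of mouse 817 is left out on the right because its Tom value is listed at 0. The b-KC values of all genes but Icam1 rest on few reads, and nothing is read from them. In HF-SC, 9 genes lie between 0.0557 and 2.47%, and Icam1 lies at 21.0 to 61.9%.

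The relative abundance of the 9 genes was compared within each library. Of their summed FPKM, Ackr1 made up 12.8 to 15.1% in control HF-SC and 14.6 to 15.9% in Tomato+ HF-SC. Pecam1 made up 5.87 to 7.62% in control HF-SC and 6.93 to 8.13% in Tomato+ HF-SC, and Cdh5 0.626 to 1.02% and 0.820 to 1.11%. The shares of these 3 genes overlapped between controls and Tomato+ cells. Fabp4 made up 27.3 to 38.4% in control HF-SC and 9.48 to 27.2% in Tomato+ HF-SC, and Vcam1 0.863 to 1.22% and 1.66 to 3.19%, with no overlap for either gene. The ranges of the other 4 genes (Sele, Selp, Plvap and Emcn) overlapped between controls and Tomato+ cells. In GFP+ HF-SC, where the sum was small, Pecam1 made up 11.2 to 34.1%, above both other groups, Vcam1 1.56 to 10.0% and Plvap 10.4 to 31.0%. Fabp4 made up 14.2 to 20.4% and Selp 6.10 to 12.8% there.

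Between the control populations the levels are also given without a test, since the genes were chosen on HF-SC values and 9 of them passed the filter only through HF-SC. On the log2(FPKM + 1) scale, control HF-SC minus control b-KC was 5.06 for Fabp4, 4.44 for Plvap, 4.14 for Ackr1, 4.10 for Sele, 3.85 for Selp, 3.17 for Pecam1 and 3.02 for Emcn. It was 1.12 for Cdh5, 1.11 for Vcam1 and -0.25 for Icam1. The control HF-SC libraries lay above every control b-KC library for the first 9, and for Icam1 the ranges overlapped. How many of all genes were so separated was not counted, and nothing is read from the number here.

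The comparisons within b-KC set no HF-SC group against another, and in them limma was used, with the spread estimated over all 18 libraries, on log2(FPKM + 1), with calls at an adjusted p under 0.01 (Benjamini-Hochberg, over the 12751 genes tested). All 10 genes passed the filter of at least 1 FPKM in at least 3 libraries, but b-KC libraries alone would have let only Icam1 through. The other 9 were kept for their HF-SC levels and lay near 0 in b-KC, so nothing is read from their lack of a call there and it is not set against the share of all genes called.

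In b-KC of DKO* mice, Icam1 was the 1 gene of the 10 called. It was higher in GFP+ b-KC than in control b-KC by 1.35 (SE 0.32, adjusted p = 0.00423), 2.56 times on the mean FPKM, where 24.5% of all tested genes were called in either direction. The call was lost without mouse 810 (difference 1.16, adjusted p = 0.0289), 815 (1.41, adjusted p = 0.0231) or 825 (1.32, adjusted p = 0.0222) and was kept without each of the other 3 mice (adjusted p = 0.000775 to 0.00963). The other 9 genes differed by -0.20 to 0.22 between GFP+ b-KC and control b-KC, and the 95% interval of Sele, for one, ran from -0.85 to 1.06.

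Between Tomato+ b-KC and control b-KC, limma called none of the 10 genes, and none had an unadjusted p under 0.05. Over all tested genes 30.8% were called, a share that can be read for Icam1 alone. Icam1 differed by 0.59 (95% interval -0.10 to 1.27, adjusted p = 0.149). Plvap was at 1.26, 1.91 and 0.752 FPKM in Tomato+ b-KC, above every control b-KC library (0.192, 0.504 and 0.146 FPKM) and every GFP+ b-KC library (0.702, 0.594 and 0.0700 FPKM). As 1 of the 9 genes kept for their HF-SC levels it is given here by its levels alone. Part of the annotated span of Plvap is shared with Gtpbp3, which was at 4.80 to 6.13 FPKM in Tomato+ b-KC and at 2.12 to 3.12 FPKM in control b-KC, and its part in the Plvap values was not tested.

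Between Tomato+ b-KC and GFP+ b-KC, limma again called none of the 10 genes at an adjusted p under 0.01. Over all tested genes 0.486% were called, which again can be read for Icam1 alone, the 1 gene of the 10 with an unadjusted p under 0.05. The Tomato+ level of Icam1 was under the GFP+ level of the same mouse in every mouse, with a mean difference of -0.76 (SE 0.32, limma adjusted p = 0.347). With mouse as a fixed block the adjusted p of Icam1 was 0.0472, so it was not called.

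**Figure D4:**
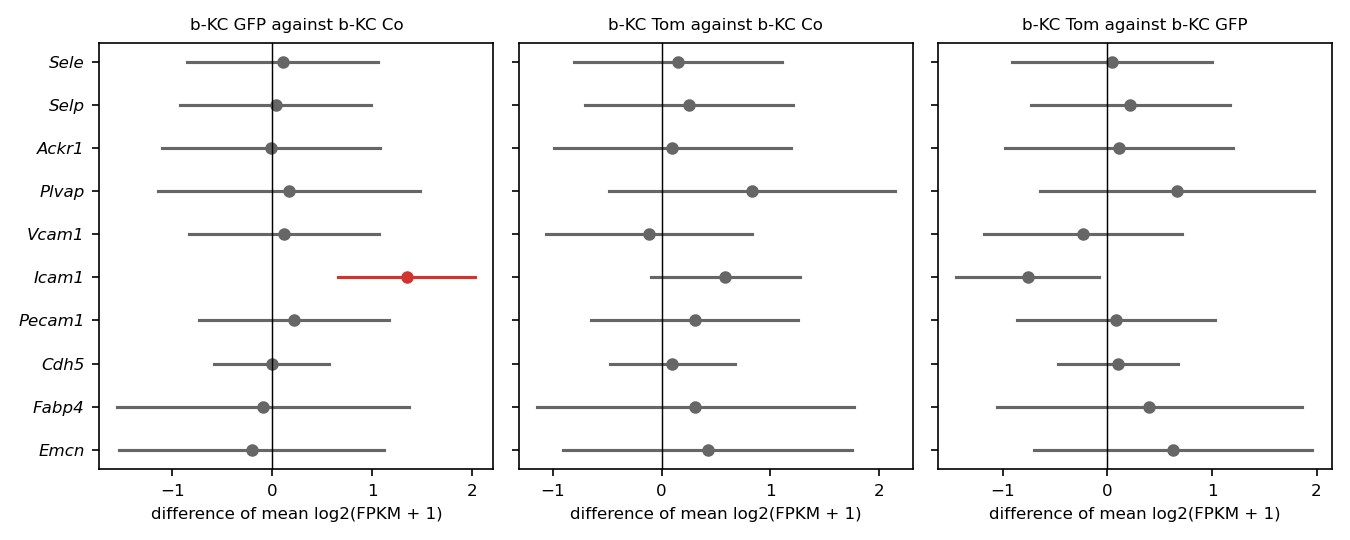
Difference of the mean log2(FPKM + 1) with its 95% interval for each of the 10 genes in the 3 comparisons within b-KC, with 3 libraries per group; red marks an adjusted p under 0.01 by limma, and the horizontal scales differ between panels. Icam1 in GFP against Co is red, at 1.35, and no other gene is.

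Endothelial genes outside the 10 had a similar pattern over the libraries, at levels of their own. By Pearson correlation of log2(FPKM + 1) with the mean of the 10 over the 18 libraries, the most alike were Eng, S1pr1, Jam2, Aqp1, Esam, Tek, Mmrn2, Pde2a, Gpr116 and Vwf, with r of 0.990 to 0.995. The ranking was not stable, since 1 of these 10 was among the 10 most alike by Spearman's rho, 5 at pseudocount 0.1 and 5 without Tomato+ HF-SC. The libraries share their sort gates and fall into 6 groups, so these values describe the groups more than single libraries. Eng, an endothelial co-receptor of the TGF-beta family, averaged 4.30 FPKM in control HF-SC, 1.58 in GFP+ HF-SC and 71.9 in Tomato+ HF-SC. Vwf, the clotting factor stored with P-selectin in endothelial granules, averaged 7.90, 2.03 and 83.2 FPKM. Among the 10 themselves, each of the 9 correlated at 0.956 to 0.998 with the mean of the others, while Icam1 correlated at 0.60 and, without the Tomato+ HF-SC libraries, at -0.46.

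Of 20 pan-endothelial genes listed with earlier results of these data known, 19 passed the filter. All 20 reached 1 FPKM in a Tomato+ HF-SC library, while 4 stayed under it in every control HF-SC library and 10 in every GFP+ HF-SC library, so the counts below describe the list and are no independent support for its direction. The 19 were called higher in Tomato+ HF-SC than in control HF-SC, with a median difference of 2.95, led by Eng (3.68), the angiopoietin receptor relative Tie1 (3.66) and the secreted vascular factor Egfl7 (3.65). In GFP+ HF-SC against control HF-SC 7 of the 19 were called lower and none higher, with a median of -0.91. Of all tested genes 12.3% were called lower there. The 7 were Tek, Kdr, Cd93, Robo4, Mmrn2, Esam and Podxl. This count of calls was 13 without mouse 817, of which 12 fell, 3 without mouse 810, 2 without 814, 4 without 828 and 1 without 825. The difference was above 0 for 2 of the 19. For 1 of these, Ecscr, every GFP+ HF-SC library (14.2, 12.2 and 7.72 FPKM) lay above every control HF-SC library (5.27, 5.25 and 4.47 FPKM). Tomato+ HF-SC was called above GFP+ HF-SC for 17 of the 19, for 14 with mouse as a fixed block and for 8 with only these 2 groups in the fit. In control HF-SC against control b-KC, 15 of the 19 were called higher in HF-SC, where 18.7% of all tested genes were.

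In b-KC, 4 of the 19 pan-endothelial genes (Ecscr, Egfl7, Icam2 and Mmrn2) had every GFP+ and Tomato+ library above every control library, and Ecscr alone of them was called. The share of all tested genes that did so was not counted, so nothing is read from the 4. Ecscr, a regulator of endothelial migration, was called higher in GFP+ b-KC (difference 3.07) and in Tomato+ b-KC (2.09) than in control b-KC, and no other gene of the list was called by limma in the b-KC comparisons, where 0 to 3 of the 19 had an unadjusted p under 0.05. Of the 20 listed genes, 20, 17 and 15 stayed under 1 FPKM in every library of control, GFP+ and Tomato+ b-KC, so nothing is read from the lack of a call of these. Ecscr was at 0.238 to 0.397 FPKM in control b-KC, at 3.34 to 17.6 FPKM in GFP+ b-KC and at 1.82 to 7.03 FPKM in Tomato+ b-KC. Egfl7 was at 0.333 to 0.632 FPKM in control b-KC, at 1.13 to 4.82 FPKM in GFP+ b-KC (difference 1.52, adjusted p = 0.0415) and at 3.27 to 4.78 FPKM in Tomato+ b-KC (1.84, adjusted p = 0.0151). Of the venous genes, Lrg1, a secreted glycoprotein, was also called higher in GFP+ b-KC (5.19), at 143, 86.8 and 9.39 FPKM in mice 814, 815 and 817, while Vwf was at or under 0.137 FPKM in GFP+ and Tomato+ b-KC. Lrg1 was the 1 venous gene called higher in either. Tll1, a secreted metalloprotease, was called lower in GFP+ b-KC (-1.32) and in Tomato+ b-KC (-1.32) than in control b-KC, and the ephrin receptor Ephb4 was called lower in Tomato+ b-KC (-0.64).

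Genes of several subtypes of endothelium rose in Tomato+ HF-SC. Against control HF-SC, limma called 15.7% of all tested genes higher and 13.9% lower there, and 13.0 and 12.3% in GFP+ HF-SC. Under 1 FPKM in every control HF-SC library were 6 of 9 arterial, 4 of 6 capillary and 5 of 5 lymphatic genes. In every Tomato+ HF-SC library 1, 0 and 0 were. Some may thus have passed the filter through Tomato+ HF-SC alone, so the counts below are no independent support for the direction of a list. Of 7 venous genes, 5 rose against control HF-SC, among them Lrg1 (3.81), Vwf (3.19) and the apelin receptor Aplnr (2.12), and none fell. In GFP+ HF-SC 3 of the 7 fell and none rose. Of 9 arterial genes only 4 passed the filter. Nos3, the endothelial nitric oxide synthase (3.09), and Sox17 (1.69) rose in Tomato+ HF-SC, and Efnb2 fell by 1.58, from 57.9 FPKM in control HF-SC to 19.2. In GFP+ HF-SC 1 of the 4 fell and none rose. Of 6 capillary genes 5 passed, and Car4 (3.74) and Cd300lg (2.85) rose, while Cd36 differed by 1.70 (adjusted p = 0.0565). In GFP+ HF-SC Rgcc rose (1.11) and none of the 5 fell. Of 5 lymphatic genes 2 passed, and both, Lyve1 (2.74) and Mmrn1 (1.97), rose. Lyve1 was at 9.76, 24.7 and 1.71 FPKM in Tomato+ HF-SC of mice 814, 815 and 817, a level that differed widely between mice.

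Other genes of leukocyte passage were mixed. Of 12 genes of endothelial junctions and diapedesis, 11 passed and 5 rose in Tomato+ HF-SC, led by Icam2, Esam (2.91) and Jam2 (2.75), and 1 fell. In GFP+ HF-SC 1 rose and 3 fell, and in b-KC none was called higher than in controls, with 2 lower in GFP and 3 in Tom. Against controls, limma called 15.7% of all tested genes higher and 13.9% lower in Tomato+ HF-SC, and 13.0 and 12.3% in GFP+ HF-SC. In b-KC it called 24.5% in GFP and 30.8% in Tom in either direction, so nothing is read from the b-KC counts. Of 11 leukocyte ligands and integrins, 4 passed the filter in these CD45- cells. Cd44, which binds hyaluronan and selectins, rose in GFP+ HF-SC (1.33) and in Tomato+ HF-SC (0.70) and was lower in Tom than in GFP (-0.64, adjusted p = 0.00678). Podxl (2.29) and Itgb7 (0.52) also rose in Tomato+ HF-SC. In GFP+ HF-SC the integrin chain Itgam rose (1.06) and Podxl fell (-0.73).

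Many of the cytokines known to induce these adhesion genes, and of their receptors, rose in both DKO* HF-SC fractions. Of 13 such genes 10 passed, and 8 rose in Tomato+ HF-SC and 6 in GFP+ HF-SC against control HF-SC, with no gene falling. Limma called 15.7 and 13.0% of all tested genes higher in these 2 comparisons. Il1b rose by 2.83 in Tom and 2.65 in GFP, the receptor chain Il4ra by 2.33 and 1.73, and the TNF receptor Tnfrsf1b by 2.18 in Tom, with 0.41 in GFP (adjusted p = 0.185). Tnfrsf1b was called higher in Tomato+ HF-SC than in GFP+ HF-SC (1.77, adjusted p = 8.37e-05), and Il1a, an interleukin-1 cytokine, was called lower (-3.23, adjusted p = 1.5e-05). Il1a was at 38.8 to 89.8 FPKM in GFP+ HF-SC and at 5.59 to 6.46 FPKM in Tomato+ HF-SC. Tnf was at 6.34 to 11.9 and 4.21 to 5.29 FPKM, ranges that did not overlap, and was not called between the fractions (adjusted p = 0.0641). In b-KC, 4 of the 10 were called higher in GFP and 1 in Tom than in Co, none lower, where 24.5 and 30.8% of all tested genes were called in either direction.

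Of 8 chemokines that Ackr1 binds, 7 passed, and Cxcl1, Cxcl2 and Cxcl5, which draw neutrophils, rose in both DKO* fractions of HF-SC. Of all tested genes 15.7% were called higher in Tomato+ HF-SC and 13.0% in GFP+ HF-SC than in control HF-SC. Cxcl1 averaged 13.7 FPKM in control HF-SC, 196 in GFP+ HF-SC and 318 in Tomato+ HF-SC, and Cxcl2 averaged 0.444, 33.0 and 19.1 FPKM. Thus these chemokines were high in GFP+ HF-SC, where Ackr1 itself averaged 3.10 FPKM. None of the 7 was called between Tomato+ HF-SC and GFP+ HF-SC at an adjusted p under 0.01 by limma, although 2 had an unadjusted p under 0.05, among them Cxcl2 (adjusted p = 0.0115).

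**Figure D5:**
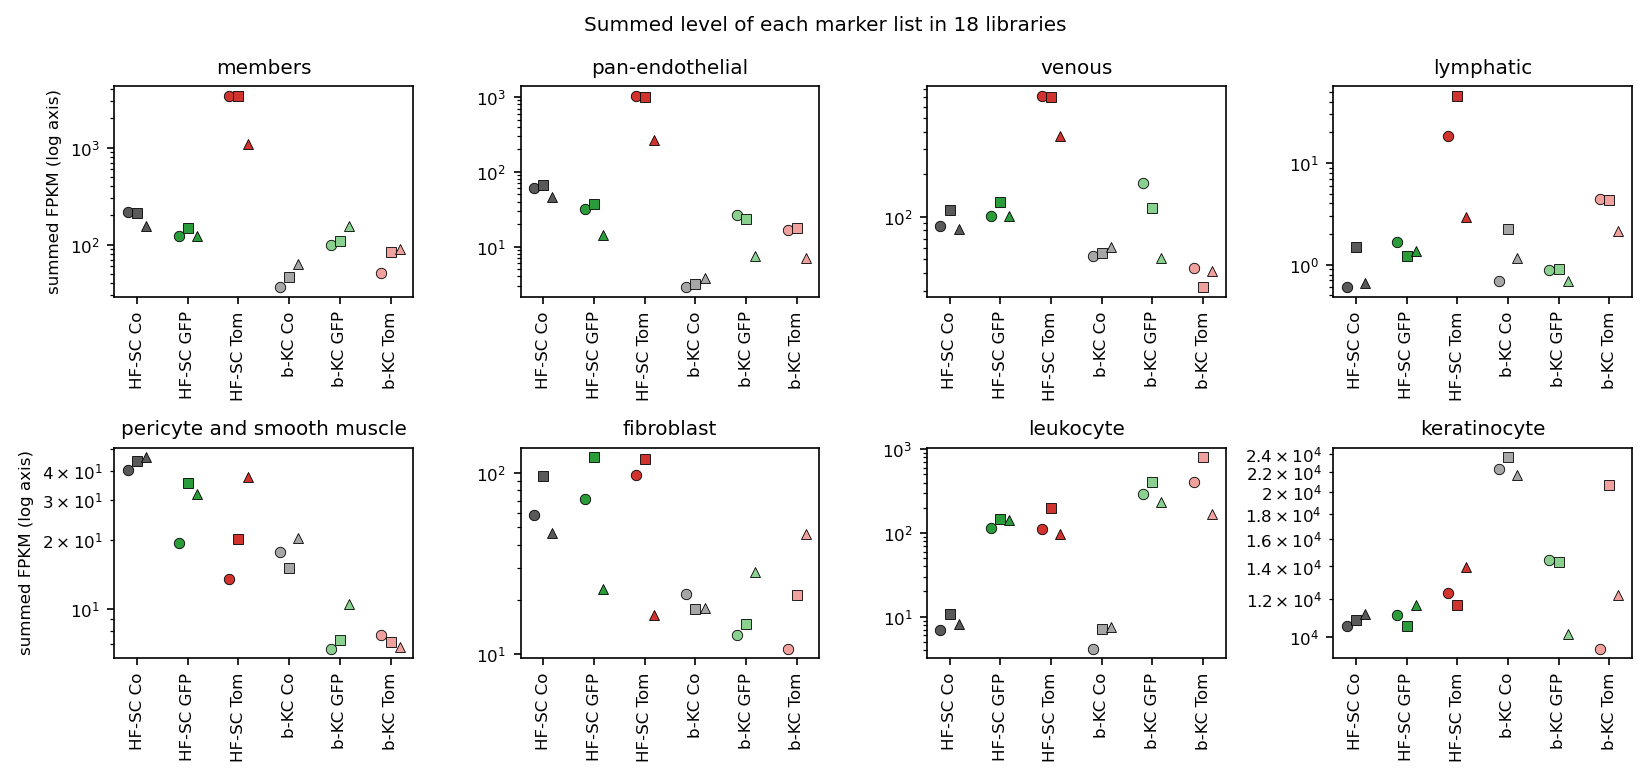
Summed FPKM of 8 gene lists in every library on log axes whose ranges differ between panels; colours and marks are those of the plot of levels. The pan-endothelial and venous panels are highest in Tomato+ HF-SC, the fibroblast panel is lowest in mouse 817 in both DKO* HF-SC fractions, and keratinocyte sums of 3 b-KC libraries lack Krt14, listed at 0 there.

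Genes of other cell types moved with the same libraries to different degrees. Of 7 fibroblast genes, 6 passed and none was called between any pair of the HF-SC groups by limma, although 2 had an unadjusted p under 0.05 in each DKO* fraction against controls and 0 between the fractions. Their summed level was 46.5 to 95.9 FPKM in control HF-SC, 22.8 to 122 in GFP+ HF-SC and 16.5 to 119 in Tomato+ HF-SC. Dcn, a matrix proteoglycan, was at 71.6, 64.5 and 3.40 FPKM in Tomato+ HF-SC of mice 814, 815 and 817. Mouse 817 was thus low for Dcn as it was for the endothelial genes, but not all fibroblast genes shared this. Col1a2, a collagen gene, was at 4.65 FPKM in mouse 814 and at 7.07 FPKM in mouse 817 in Tomato+ HF-SC. In GFP+ HF-SC it was at 5.88 and 7.03 FPKM in these mice. Pdgfra was lowest in mouse 817 in both fractions, at levels under 1 FPKM. Pericyte and smooth muscle genes summed to 40.4 to 46.2 FPKM in control HF-SC, 19.5 to 35.5 in GFP+ HF-SC and 13.6 to 37.7 in Tomato+ HF-SC, mostly Cspg4, and 3 of 9 passed. Against controls, Cspg4 fell (-1.22) and Acta2, smooth muscle actin, rose (0.86) in Tomato+ HF-SC, and Notch3 (1.24) and Acta2 (0.64) rose in GFP+ HF-SC, where none fell. Rgs5, which defines pericytes, was at or under 0.0552 FPKM in every library. None of 6 adipocyte genes passed, and their sum stayed at or under 0.519 FPKM, so Fabp4 was high where Adipoq was at or near 0.

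Most of the leukocyte sum in the DKO* groups was Cd74. The 9 leukocyte genes with a row summed to 6.95 to 10.6 FPKM in control HF-SC and to 96.8 to 196 in Tomato+ HF-SC, of which Cd74, the invariant chain of MHC class II, held 81.0 to 191 FPKM. The sum was also 116 to 149 FPKM in GFP+ HF-SC, and it was 4.16 to 7.53 in control b-KC, 233 to 404 in GFP+ b-KC and 171 to 807 in Tomato+ b-KC, where the 9 endothelial genes lay near 0. Cd74 was called higher in all 4 DKO* groups than in the controls of the same population. Ptprc, which encodes CD45, was at or under 0.946 FPKM in every library and was highest in the GFP+ HF-SC library of mouse 817. Pf4, a platelet chemokine, was at 21.7 FPKM in that library and at 1.82 and 1.98 FPKM in the other GFP+ HF-SC libraries. The 7 platelet and red cell genes summed to 2.04 to 7.71 FPKM in control HF-SC and 5.47 to 9.28 in Tomato+ HF-SC, with 1 of 3 tested genes rising. The 7 melanocyte and Schwann cell genes summed to 2.45 to 8.96 FPKM in Tomato+ HF-SC, and limma called none there against controls, with 0 at an unadjusted p under 0.05. In GFP+ HF-SC they summed to 5.77 to 16.4 FPKM, against 3.74 to 5.36 in controls. There 1 of the 4 tested, the pigment enzyme Tyrp1 (1.44), rose, and all 4 had an unadjusted p under 0.05. The part of these cells in the results was not tested.

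The labelled populations carried most of their defining genes. Of 10 keratinocyte genes, all passed and none was called among the HF-SC groups by limma, with 4 at an unadjusted p under 0.05 in Tomato+ cells and 1 in GFP+ cells against controls and 1 between them. Krt5 stood at 2299 to 3902 FPKM in HF-SC. Of 11 bulge stem cell genes, 10 were called higher in control HF-SC than in control b-KC, with Cd34 at 640 to 889 FPKM against 1.13 to 2.04. The exception was Krt15, which was listed at 0 in control HF-SC of mouse 828 and at 11261 and 11764 FPKM in those of mice 810 and 825. Krt14 was listed at 0 in the GFP+ b-KC library of mouse 817 and the Tomato+ b-KC libraries of mice 814 and 817. In DKO* mice 6 bulge genes fell in Tomato+ HF-SC and 7 in GFP+ HF-SC against control HF-SC, where 13.9 and 12.3% of all tested genes were called lower. None was called between Tomato+ and GFP+ cells, 2 having an unadjusted p under 0.05. Cd34 was at 260 to 319 FPKM in Tomato+ HF-SC and at 161 to 228 in GFP+ HF-SC. The part of a changed cell mixture in these values was not tested.

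The targeted genes were lowest in GFP+ cells and lay between those and the controls in Tomato+ cells. Jun was at 835 to 1086 FPKM in control HF-SC, at 308 to 614 in Tomato+ HF-SC and at 30.5 to 88.4 in GFP+ HF-SC, and Junb at 436 to 463, 251 to 402 and 38.6 to 77.5. Both were called lower by limma in GFP+ HF-SC than in Co, with differences of -4.07 for Jun (adjusted p = 1.53e-06) and -2.88 for Junb (adjusted p = 2.89e-06), and neither was called in Tomato+ HF-SC against Co (adjusted p = 0.0155 and 0.147). In b-KC both were called lower in GFP+ cells and in Tomato+ cells than in controls, the Tomato+ differences being -1.94 for Jun (adjusted p = 0.00114) and -1.27 for Junb (adjusted p = 0.00308). Jun was at 163 to 400 FPKM in Tomato+ b-KC and at 876 to 1000 in control b-KC. Mouse 817 had the lowest Jun and Junb in GFP+ HF-SC and the highest in Tomato+ HF-SC of the DKO* mice, while it had the lowest levels of the 9 endothelial genes in both.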

How the data were processed

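RNA of FACS-sorted ear epidermal cells was amplified with SMART-Seq v4 and sequenced unstranded. Per the labels and the study's methods, the authors aligned reads with TopHat 2.0.10 and Bowtie 1.0.0 and estimated expression with Cufflinks 2.2.1 against mouse mm9, although the submitters' processing notes also name GRCm38 and mm10. The deposited table holds FPKM per gene, so no count test was used. Annotated positions were taken from NCBIM37, the build of mm9. The members and gene lists were chosen with earlier results of these data known.

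A gene was tested if 3 or more of the 18 libraries held 1 FPKM or more of it (12751 of 23951), and the test was made with limma 3.58.1 in R 4.3.3 on log2(FPKM + 1), with 1 mean per group and a trend in the variance, a scale that understates folds of low genes. Calls had an adjusted p under 0.01. The members are described without a test wherever HF-SC values enter. The comparison of both control populations had been planned as a test and is given as a description, because HF-SC values served to choose the members. The rule for named genes was the 10 members, Jun and Junb, the 10 most correlated genes and 3 genes per list (largest difference between Tomato+ HF-SC and control HF-SC, or highest mean for other cell types). Ptprc, Rgs5, Adipoq, Ecscr, Egfl7 in b-KC, Tyrp1, Gtpbp3 and further list genes were named after their values were seen. GFP and Tom libraries share mice by label, and their deviations from the group means correlated at 0.0838 to 0.591 in HF-SC and 0.242 to 0.687 in b-KC. Alternatives were the pseudocount, the filter, scaling, the libraries in the fit, the mouse as a block and leaving out each mouse. The precision of each value is limited by 3 libraries per group, and read numbers were estimated from the steps of low values. The tests were tested on simulated data.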

Additional observations from a re-analysis of the deposited data

Results flagged for a closer look

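For 2 members the sign of a difference was opposite in the HF-SC and b-KC populations in every library or mouse. The difference between the populations was not tested, the HF-SC values served to choose the genes, and no b-KC difference of either gene was called in these comparisons. The level of Vcam1 was higher in Tomato+ HF-SC than in control HF-SC in every library (mean difference of log2(FPKM + 1) 4.18) and lower in Tomato+ b-KC than in control b-KC in every library (-0.11), by as little as 0.193 against 0.195 FPKM. Within each mouse, Vcam1 was higher in Tom than in GFP in HF-SC (4.93) and lower in b-KC (-0.23), where all its values were at or under 0.401 FPKM. Vcam1 passed the filter through HF-SC alone, so nothing is read from its sign in b-KC. Icam1 was higher in Tom than in GFP within each mouse in HF-SC (1.72) and lower in b-KC (-0.76, limma adjusted p = 0.347), at levels of 47.4 to 155 FPKM.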

How the results depend on the processing

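The 1 member called in GFP+ b-KC against Co (Icam1) was 0 with a log2 difference of at least 2 required, and 0 to 1 without single mice. The 0 members called in Tomato+ b-KC against Co became 0 to 1 without single mice (Plvap without mouse 817, a gene kept for its HF-SC levels). Pan-endothelial calls in GFP+ HF-SC against Co numbered 7, 1 with a log2 difference of at least 2 and 1 to 13 without single mice. In Tomato+ HF-SC against GFP they numbered 17, and 8 with only the 2 groups in the fit. With mouse as a random replicate block, the counts were 1, 0 and 0 for members in b-KC and 19, 7 and 19 for pan-endothelial genes, and a fixed block gave 0 members and 14 pan-endothelial genes in Tom against GFP, so the block changed no call of a member. The fit of only the 9 b-KC libraries was added after seeing the data and called the same numbers. No direction reversed, and HF-SC differences of members on the log2 scale moved by over 1 SD in 6 of 210 cases, all at pseudocount 0.1. On the FPKM scale the ratio of 6 members in GFP+ HF-SC and of 1 in Tomato+ HF-SC moved by over 1.5 times without 1 mouse. The cause was not tested. Values resting on single reads limit what b-KC can show.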
